A study of Mus musculus with 10 samples.

Results

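Toll-like receptors (TLR) and the proteins that present lipopolysaccharide (LPS) to them were followed through 3 populations of mouse endothelial cells as 9 genes, namely Tlr2, Tlr3, Tlr4, Tlr5, Tlr6, Tlr7, Cd14, Ly96 and Myd88. The genes were chosen by symbol, are 9 of the 23284 rows of the count table, and all 9 passed the filter on low counts. Comparisons were made between lymph node LEC (lymphatic endothelial cells; LN-LEC, 4 libraries), lymph node BEC (blood endothelial cells; LN-BEC, 3 libraries) and diaphragm LEC (D-LEC, 3 libraries), all from wild-type C57BL/6 mice of 6 to 8 weeks in homeostasis. Sorting gates were CD31+ PDPN+ for both LEC populations and CD31+ PDPN- for LN-BEC, among cells without CD45, and the lymph node pools mixed peripheral with mesenteric nodes. Each library came from cells pooled over several mice, so that the spread between libraries, and every p-value given here, describes pools.

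TLRs are transmembrane receptors that bind molecules made by microbes. LPS from the outer membrane of gram-negative bacteria is drawn from LPS-binding protein (LBP) by CD14 and handed to MD-2, the product of Ly96, which holds it against TLR4. TLR2 recognizes lipopeptides as a partner of TLR1 or TLR6, TLR5 recognizes flagellin, TLR3 recognizes long RNA duplexes in endosomes and TLR7 recognizes RNA rich in uridine in the same compartment. All of these but TLR3 signal through the adaptor MYD88, while TLR3, and TLR4 once inside the cell, use TICAM1 (TRIF). Endothelial cells are among the cells that respond directly to LPS, by raising leukocyte adhesion molecules and chemokines.

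The libraries held between 22429940 and 48906070 counted fragments, so that 3 counts were worth 0.0613 to 0.134 CPM, the unit of counts relative to a library's total. Levels are given as normalised counts, which are counts divided by a size factor for the library and not scaled for gene length, and comparisons between genes are given as TPM, which are scaled both for length and for the library. The populations carried the markers of their labels. The summed level of 6 lymphatic markers was 4382 to 5355 CPM in LN-LEC and 20241 to 20800 CPM in D-LEC against 100.4 to 272 CPM in LN-BEC, and that of 4 blood endothelial markers was 1853 to 2250 CPM in LN-BEC against at most 44.9 CPM in either LEC population. LN-LEC replicate 4, the most deeply sequenced library, lay farther from the other LN-LEC libraries than they lay from each other (mean distance over variable genes 22.6 against 13.8 to 14.6), and LN-BEC replicate 3 did so among LN-BEC (32.8 against 23.3 to 24.3). Across populations both were nearest to each other, at a distance of 59.0. Each of the remaining libraries lay 64.9 to 73.2 from the nearest library of another population. Both also come last in the order of the sample records, and why they stand apart was not tested.

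LN-LEC and LN-BEC overexpressed Tlr4 relative to D-LEC, and D-LEC overexpressed Cd14 relative to both. In the comparison of LN-LEC with D-LEC, 7 of the 9 genes had an adjusted p under 0.05 (edgeR's quasi-likelihood test over 15323 genes), 6 of them higher in LN-LEC (Tlr2, Tlr3, Tlr4, Tlr6, Ly96 and Myd88) and 1 (Cd14) the other way. The background is high, since 45.8% of all genes tested passed in this comparison, 24.1% toward LN-LEC and 21.7% toward D-LEC. Of the 9 genes 4 passed between LN-LEC and LN-BEC, with Tlr4 higher in LN-LEC and Tlr6, Cd14 and Ly96 higher in LN-BEC, against 38.2% of all genes (19.8% toward LN-LEC and 18.4% toward LN-BEC). Between D-LEC and LN-BEC 7 of 9 passed, with Cd14 higher in D-LEC and Tlr2, Tlr4, Tlr6, Tlr7, Ly96 and Myd88 higher in LN-BEC, against 48.1% of all genes (22.5% toward D-LEC and 25.6% toward LN-BEC). The libraries of the populations compared did not overlap for 6, 6 and 8 of the 9 genes, against 50%, 44.9% and 56.1% of all genes. The median log2 fold change over the 9 genes was 0.84 for LN-LEC over D-LEC, -0.14 for LN-LEC over LN-BEC and -1.36 for D-LEC over LN-BEC, beside 0.025, -0.008 and -0.045 over all genes. The comparisons share libraries and are therefore not independent of one another.

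The scaling between libraries bears on the comparisons with LN-BEC. When library totals took the place of TMM factors, an alternative chosen after seeing the data, the median log2 fold change of all genes moved by 0.195 in LN-LEC over LN-BEC and by 0.18 in D-LEC over LN-BEC, against 0.018 in LN-LEC over D-LEC. The 9 genes then gave 2 calls toward LN-LEC (Tlr2 and Tlr4) and 2 toward LN-BEC (Tlr6 and Ly96), beside 29.8% and 13.4% of all genes. Between D-LEC and LN-BEC they gave 1 call toward D-LEC and 6 toward LN-BEC, as before, beside 30.5% and 19.9% of all genes.

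**Figure D1:**
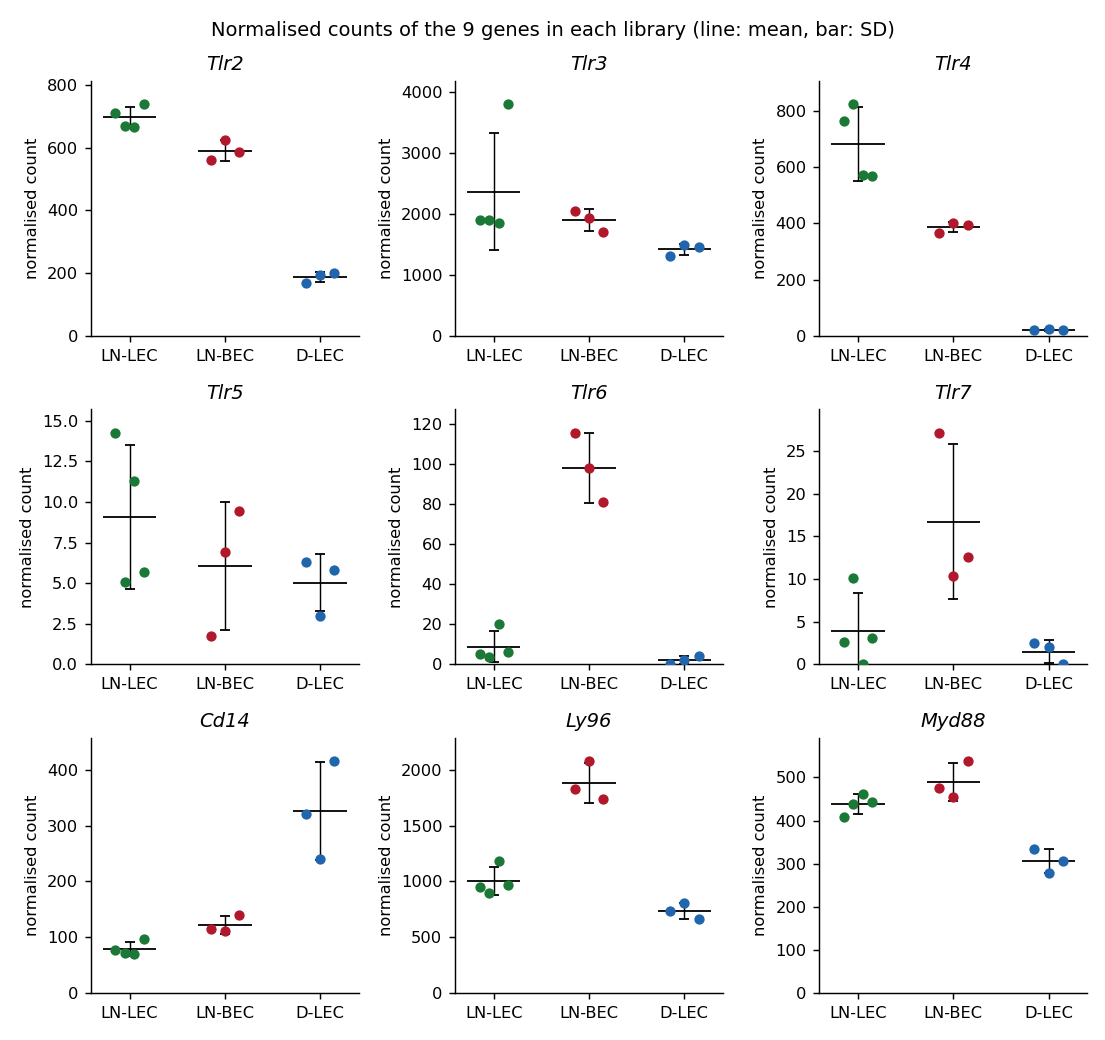
Normalised counts (counts divided by the library's size factor, linear axes from 0) of the 9 genes, with each point 1 library, the horizontal line the mean and the bar the SD of LN-LEC (n = 4), LN-BEC (n = 3) and D-LEC (n = 3). Tlr4 lies between 567 and 823 in LN-LEC and between 19.8 and 25.0 in D-LEC, Tlr6 reaches 80.9 or more in the LN-BEC libraries and at most 20.4 in the others, and Cd14 is highest in the 3 D-LEC libraries.

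Tlr4 encodes the signalling receptor for LPS and lies on the plus strand at chr4:66488845-66503830 of the mm9 build, with 3 exons. Its normalised counts in the 4 LN-LEC libraries were 763, 823, 570 and 567. In the 3 LN-BEC libraries they were 367, 401 and 394, and in the 3 D-LEC libraries 21.4, 25.0 and 19.8. The populations did not overlap, and their order was LN-LEC over LN-BEC over D-LEC. LN-LEC exceeded D-LEC 31.1-fold (log2 fold change 4.96 ± 0.20 SE, adjusted p = 1.9e-10) and LN-BEC 1.77-fold (0.83 ± 0.14, adjusted p = 0.00038). D-LEC was 17.5-fold below LN-BEC (log2 fold change -4.13 ± 0.20, adjusted p = 1e-09). The D-LEC values rest on 17, 25 and 24 counted fragments, so that Tlr4 was detected in each D-LEC library. On the TPM scale the order was the same without overlap, with LN-LEC 28.2-fold and LN-BEC 10.9-fold above D-LEC.

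Cd14 encodes the co-receptor that loads LPS onto the receptor complex and lies on the minus strand at chr18:36884721-36886308 (mm9, 2 exons). It had the opposite order. Its normalised counts were 76.5, 71.1, 69.0 and 96.8 in LN-LEC, 115, 111 and 140 in LN-BEC, and 322, 240 and 416 in D-LEC, so that every D-LEC library lay above every lymph node library. D-LEC exceeded LN-LEC 4.07-fold (log2 fold change of LN-LEC over D-LEC -2.03 ± 0.21, adjusted p = 2.7e-06) and LN-BEC 2.67-fold (1.42 ± 0.22, adjusted p = 0.00013). The smaller difference between LN-BEC and LN-LEC passed the test (1.52-fold, log2 fold change of LN-LEC over LN-BEC -0.61 ± 0.21, adjusted p = 0.036), but it did not pass without LN-BEC replicate 1 (adjusted p = 0.059), LN-BEC replicate 3 (0.11), LN-LEC replicate 1 (0.073), LN-LEC replicate 2 (0.083) or LN-LEC replicate 3 (0.087), nor with library totals (0.14). On the TPM scale LN-LEC and LN-BEC overlapped for Cd14 (3.92 ± 0.278 and 4.18 ± 0.243), and D-LEC exceeded LN-BEC 4.37-fold.

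The summed level of 13 macrophage and monocyte markers was 304 to 329 CPM in D-LEC, 171 to 309 CPM in LN-LEC and 14.2 to 22.1 CPM in LN-BEC, most of it from Mrc1 in LEC. Without Mrc1, which was left out after its values were seen, the sum was 18.2 to 33.5 CPM in D-LEC, 11.5 to 17.8 CPM in LN-LEC and 11.7 to 15.5 CPM in LN-BEC. The markers left did not share 1 order. Mean normalised counts in D-LEC, LN-LEC and LN-BEC were 451, 144 and 284 for Cd68 and 58.3, 35.5 and 25.7 for Csf1r. They were 116, 123 and 83.7 for Lyz2, 43.8, 59.2 and 19.3 for C1qb, and 16.7, 28.6 and 10.3 for C1qc. Among D-LEC, replicate 2 had the highest macrophage and monocyte sum, with or without Mrc1, and the lowest Cd14. The sum of 6 fibroblast and pericyte markers was 33.9 to 129 CPM in D-LEC, 39.4 to 106 CPM in LN-LEC and 61.4 to 142 CPM in LN-BEC. Among D-LEC it was lowest in replicate 2, as Cd14 was. Skeletal muscle markers also moved with D-LEC, and the summed level of 5 of them was 30.1 to 41.4 CPM in D-LEC, 0.941 to 1.52 CPM in LN-LEC and 2.55 to 2.95 CPM in LN-BEC. The average purity after sorting that the authors reported was lowest for D-LEC and highest for LN-LEC. The part of any of these cell types in the Cd14 difference, or in those of Lbp and Lcn2 given below, was not tested. In bulk RNA fewer cells of a type and less RNA per cell cannot be told apart.

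Ly96 encodes MD-2, the subunit that binds the lipid part of LPS, and lies on the plus strand at chr1:16678537-16699686 (mm9, 5 exons). It was highest in LN-BEC, at normalised counts of 1829, 2080 and 1738. In LN-LEC it was 950, 899, 1184 and 973, and in D-LEC 735, 811 and 668, again without overlap. LN-BEC exceeded LN-LEC 1.86-fold (log2 fold change of LN-LEC over LN-BEC -0.90 ± 0.11, adjusted p = 1.8e-05) and D-LEC 2.56-fold (log2 fold change of D-LEC over LN-BEC -1.36 ± 0.12, adjusted p = 5.9e-07). LN-LEC exceeded D-LEC by 0.46 ± 0.11 on the log2 scale (adjusted p = 0.0047). All 3 comparisons also passed with library totals. On the TPM scale, however, LN-LEC overlapped both other populations, at 106 to 153 against 122 to 195 in LN-BEC and 93.7 to 109.9 in D-LEC, and LN-BEC exceeded LN-LEC 1.30-fold and D-LEC 1.60-fold.

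The ratio of co-receptor to receptor within a library does not depend on the scaling between libraries, and is given here on the TPM scale. The Cd14 to Tlr4 ratio was 0.257, 0.222, 0.311 and 0.439 in LN-LEC, 0.803, 0.709 and 0.911 in LN-BEC, and 38.5, 24.7 and 53.8 in D-LEC. Tlr4 transcripts thus outnumbered Cd14 transcripts in every lymph node library, and the reverse held in every D-LEC library. The difference between D-LEC and LN-LEC was 125-fold, between D-LEC and LN-BEC 46.2-fold and between LN-BEC and LN-LEC 2.70-fold. The Ly96 to Tlr4 ratio was 7.94, 6.97, 13.2 and 10.9 in LN-LEC, 31.8, 33.1 and 28.1 in LN-BEC, and 219, 206 and 215 in D-LEC, so that Ly96 exceeded Tlr4 in all 10 libraries. No populations overlapped in either ratio. Exact two-sided permutation tests gave p = 0.0571 for each comparison of 4 with 3 libraries and p = 0.1 for 3 with 3, which are the smallest values these designs allow (0.0857 and 0.1 after Benjamini-Hochberg adjustment over the 6 tests), so that none could pass 0.05.

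**Figure D2:**
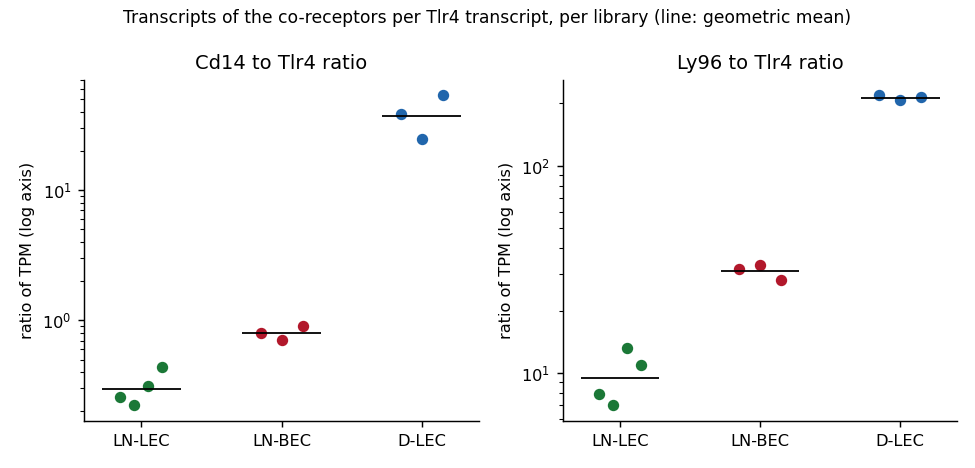
Ratio of the TPM of Cd14 (left) and Ly96 (right) to the TPM of Tlr4, on log axes, with each point 1 library and the line the geometric mean of LN-LEC (n = 4), LN-BEC (n = 3) and D-LEC (n = 3). Both ratios are lowest in LN-LEC and highest in D-LEC, with the Cd14 to Tlr4 ratio between 0.222 and 0.439 in LN-LEC and between 24.7 and 53.8 in D-LEC.

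LBP, the plasma protein from which CD14 takes LPS, was singled out after its values were seen. D-LEC had the highest Lbp level, with a normalised count of 11302 ± 1006 (SD, n = 3), followed by LN-LEC with 3823 ± 480 (n = 4) and LN-BEC with 350 ± 154 (n = 3). D-LEC exceeded LN-LEC (log2 fold change of LN-LEC over D-LEC -1.54 ± 0.25, adjusted p = 0.00072), and LN-LEC exceeded LN-BEC (3.47 ± 0.29, adjusted p = 8.8e-06). D-LEC therefore had the highest levels of Lbp and Cd14 beside the lowest level of Tlr4.

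Tlr2, the receptor for lipopeptides, lies on the minus strand at chr3:83640194-83645530 (mm9, 3 exons). Its normalised counts were 710, 670, 667 and 739 in LN-LEC, 559, 626 and 587 in LN-BEC, and 170, 194 and 199.96 in D-LEC. Both lymph node populations lay far above D-LEC. The log2 fold change was 1.90 ± 0.11 for LN-LEC over D-LEC (adjusted p = 5.2e-09) and -1.65 ± 0.11 for D-LEC over LN-BEC (adjusted p = 2.7e-08). LN-LEC and LN-BEC did not overlap, but the difference of 0.25 ± 0.10 on the log2 scale did not pass (adjusted p = 0.055). Its adjusted p was 0.036 without D-LEC replicate 1, up to 0.18 without another library and 0.0046 with library totals. On the TPM scale LN-LEC was 1.71-fold above LN-BEC, and LN-BEC 1.96-fold above D-LEC.

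Tlr6 and Tlr1, which encode the partners of TLR2, were low in all populations and highest in LN-BEC. Tlr6 lies on the minus strand at chr5:65344334-65351273 (mm9, 2 exons), and Tlr1 is its neighbour, at chr5:65316073-65323938. Normalised counts of Tlr6 were 116, 97.7 and 80.9 in LN-BEC, 5.18, 3.81, 20.4 and 6.29 in LN-LEC, and 0, 2.0 and 4.13 in D-LEC. LN-BEC stood above every LEC library. LN-LEC was below LN-BEC with a log2 fold change of -3.43 ± 0.54 (adjusted p = 0.00015), and D-LEC with one of -5.37 ± 0.70 (adjusted p = 2.4e-05). With 322 fragments in LN-BEC and 7 in D-LEC, the ratio of their rates per counted fragment was 37.5 (95% exact interval 18.0 to 94.0, counting error only).

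The call of Tlr6 in LN-LEC over D-LEC (log2 fold change 1.93 ± 0.75, adjusted p = 0.049) rested on overlapping libraries. Its adjusted p was 0.17 without LN-LEC replicate 3, the library at 20.4, 0.12 without D-LEC replicate 1 and 0.11 without D-LEC replicate 2. It was 0.062, 0.06 and 0.055 without LN-BEC replicates 1, 2 and 3. Tlr1 was ordered alike, with 57.4 ± 16.3 normalised counts in LN-BEC (n = 3), 11.3 ± 6.76 in LN-LEC (n = 4) and 1.34 ± 2.31 in D-LEC (n = 3), and all 3 comparisons of Tlr1 passed, the weakest at an adjusted p of 0.011.

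Tlr6 and Tlr1 share stretches of coding sequence, which bears on their counts, since read pairs aligning to several places were not counted. Of the 100-base windows within the exons of Tlr6, 10.8% occur a further time in the genome, and of those of Tlr1 10.9%, while no other gene among the 9 has any such window. The shared windows form 3 stretches of 208, 229 and 119 bases. The shortest is shown as the example, at chr5:65345297-65345415 in Tlr6 and chr5:65317006-65317124 in Tlr1 (mm9, read on the minus strand).
Tlr6 and Tlr1: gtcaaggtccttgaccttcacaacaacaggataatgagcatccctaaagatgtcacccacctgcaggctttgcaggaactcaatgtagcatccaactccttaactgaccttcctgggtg
The remaining windows of each gene occur once, so that most of each gene could be counted.

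Markers of B cells moved with Tlr6 and Tlr1. All 5 B cell markers were detected in LN-BEC, with a summed level of 15.2 to 26.4 CPM, against 11.6 to 17.0 CPM in LN-LEC and 0.447 to 1.37 CPM in D-LEC, and Pax5 was at 0 in every LEC library. The sum of 5 T cell markers was 4.98 to 10.8 CPM in LN-BEC and at most 1.59 CPM in LEC. LN-BEC replicate 3 had the lowest B cell sum of the LN-BEC libraries and also the lowest Tlr6. The part of these cells in the Tlr6 and Tlr1 levels was not tested.

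Tlr5 and Tlr7 were near the limit of detection. Tlr5, the flagellin receptor at chr1:184884919-184906175 (mm9, plus strand, 4 exons), had 5.08 to 14.3 normalised counts in LN-LEC, 1.75 to 9.45 in LN-BEC and 3.01 to 6.31 in D-LEC. The populations overlapped, and no comparison passed (adjusted p of 0.34, 0.53 and 0.8). A difference in Tlr5 was not detectable at this depth, where the rate of LN-LEC relative to D-LEC has a 95% exact interval of 0.906 to 3.38.

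Tlr7, a receptor for RNA in endosomes at chrX:163742863-163768460 (mm9, minus strand, 3 exons), had 27.1, 10.4 and 12.6 normalised counts in LN-BEC, 2.59, 10.2, 0 and 3.14 in LN-LEC, and 2.52, 2.0 and 0 in D-LEC. LN-BEC was above D-LEC (log2 fold change of D-LEC over LN-BEC -3.49 ± 1.05, adjusted p = 0.014). This call was lost without D-LEC replicate 3 (adjusted p = 0.053) or LN-BEC replicate 1 (adjusted p = 0.058). LN-LEC did not differ from D-LEC or LN-BEC past the threshold (adjusted p of 0.32 and 0.068). The B cell markers given above were ordered as Tlr7 was.

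Tlr3, the receptor for RNA duplexes, had the highest TPM of the receptors in every population. It lies on the minus strand at chr8:46481019-46495893 (mm9, 7 exons). Normalised counts were 1904, 1900.4, 1852 and 3796 in LN-LEC, 2053, 1938 and 1700.5 in LN-BEC, and 1309, 1483 and 1460.0 in D-LEC. LN-LEC replicate 4 stood far above the other 3 LN-LEC libraries, and every D-LEC library lay below every lymph node library. The log2 fold change of LN-LEC over D-LEC was 0.76 ± 0.25 (adjusted p = 0.033). Without LN-LEC replicate 4 the log2 fold change was 0.43 and the adjusted p 0.0025. Leaving out D-LEC replicate 1, 2 or 3 gave adjusted p of 0.12, 0.077 and 0.082. LN-LEC and LN-BEC overlapped (0.34 ± 0.25, adjusted p = 0.33). On the TPM scale they did not overlap, with LN-LEC 1.75-fold above LN-BEC (40.3 against 23.1). D-LEC and LN-BEC did not differ past the threshold with all libraries in the fit (log2 fold change -0.43 ± 0.26, adjusted p = 0.22) and did without LN-LEC replicate 4 (-0.43, adjusted p = 0.0024).

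Myd88 encodes the adaptor shared by most TLRs and by the receptors for interleukin-1, and lies on the minus strand at chr9:119245106-119249158 (mm9, 6 exons). Its normalised counts were 408, 439, 462 and 444 in LN-LEC, 475, 455 and 538 in LN-BEC, and 333, 279 and 307 in D-LEC. D-LEC lay below every lymph node library (log2 fold change of LN-LEC over D-LEC 0.54 ± 0.11, adjusted p = 0.00098, and of D-LEC over LN-BEC -0.68 ± 0.11, adjusted p = 0.00022). LN-LEC and LN-BEC overlapped (log2 fold change -0.14 ± 0.11, adjusted p = 0.32). On the TPM scale, where a library's summed counts per exon length decide, Myd88 was 13.3 ± 1.26 in LN-BEC and 13.4 ± 1.39 in D-LEC. Tlr3 was 23.1 ± 5.73 in LN-BEC and 27.4 ± 1.64 in D-LEC, so that the direction of both between D-LEC and LN-BEC turned with that scaling. It did not turn with DESeq2 size factors or library totals in place of TMM factors. The difference of Myd88 between LN-LEC and LN-BEC, which did not pass, was 0.07 with library totals. On the TPM scale it also turned, with LN-LEC 1.31-fold above LN-BEC (17.4 against 13.3) and no overlap.

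**Figure D3:**
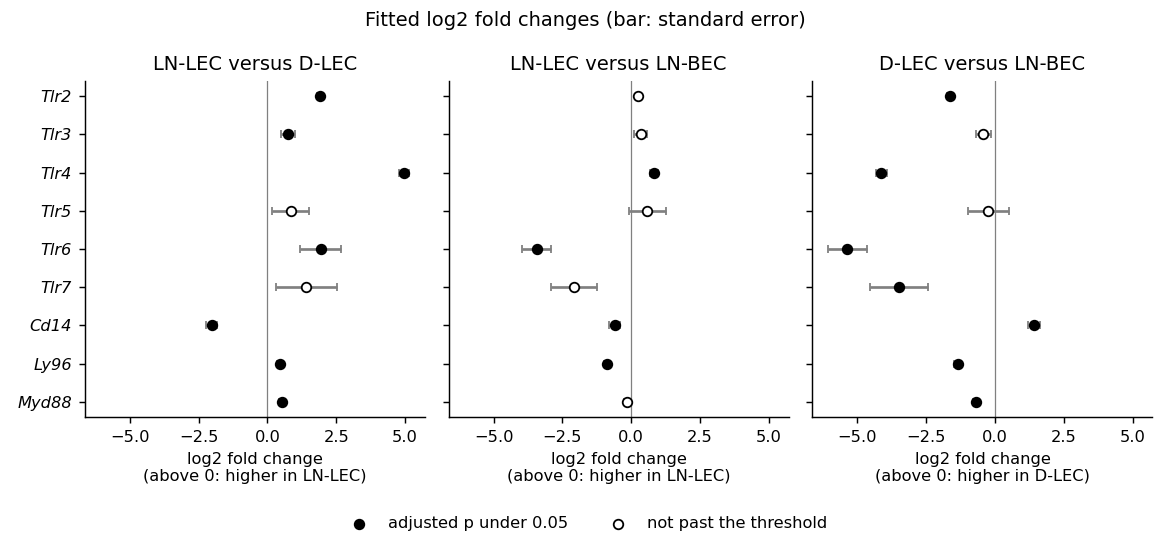
Fitted log2 fold changes of the 9 genes in each comparison with their standard errors (horizontal axes, log2 scale), filled where the adjusted p was under 0.05. Tlr4 in LN-LEC over D-LEC (4.96) and Tlr6 in D-LEC over LN-BEC (-5.37) lie far from 0, and Cd14 lies opposite to the other filled genes in both comparisons with D-LEC.

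Upstream sequences of 5 of the 9 genes (Tlr2, Tlr3, Tlr5, Tlr6 and Myd88) were matched in RefSeq (GRCm38.p6). The 250 bases before each of 6 starts were searched on both strands for letters bound by factors downstream of TLRs and interferons. These were GGGANTTTCC (NF-kB, in 0.356% of 32851 upstream sequences of that length), GAAANNGAAA (the interferon response element ISRE, in 2.98%), TTCNNNGAA (the STAT site GAS, in 7.02%) and TGANTCA (AP-1, in 6.75%). Searched beside them, without such a tie, were GAGGAA (the PU box, in 23.3%) and GGGCGG (the GC box, in 32.7%). The sequences of Tlr3, Tlr6 and Myd88 are shown because each gene passed the test toward LN-LEC against D-LEC and each sequence holds a match to NF-kB, ISRE or GAS. In the 10 fits without 1 library that call held in 7 for Tlr3, 4 for Tlr6 and 10 for Myd88, and Tlr6 was highest in LN-BEC. Capitals mark the matches, which are NF-kB in Tlr3 (chr8:45410381-45410630, minus strand), overlapping ISREs in Tlr6 (chr5:64959167-64959416, minus strand), and a GC box followed by a GAS that overlaps an ISRE in Myd88 (chr9:119340019-119340268, minus strand).
Tlr3: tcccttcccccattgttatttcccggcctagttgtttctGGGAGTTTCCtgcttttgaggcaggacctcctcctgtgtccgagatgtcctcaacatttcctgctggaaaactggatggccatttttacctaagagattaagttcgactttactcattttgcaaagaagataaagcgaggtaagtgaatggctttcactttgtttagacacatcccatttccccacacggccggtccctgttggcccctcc
Tlr6: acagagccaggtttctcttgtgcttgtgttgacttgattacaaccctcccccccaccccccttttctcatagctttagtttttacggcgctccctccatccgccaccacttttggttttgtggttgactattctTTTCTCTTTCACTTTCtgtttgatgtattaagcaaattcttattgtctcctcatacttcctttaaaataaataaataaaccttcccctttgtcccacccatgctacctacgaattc
Myd88: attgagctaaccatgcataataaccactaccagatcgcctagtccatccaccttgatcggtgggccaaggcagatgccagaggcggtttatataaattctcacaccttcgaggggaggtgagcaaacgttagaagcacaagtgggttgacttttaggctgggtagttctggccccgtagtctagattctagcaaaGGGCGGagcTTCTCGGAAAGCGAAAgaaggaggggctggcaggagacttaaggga
A match describes these letters only, and no binding was measured here. Wider forms of these sites, such as other spellings of the NF-kB site, were not searched. The Tlr2 and Tlr5 sequences held GC boxes and no other of these motifs, and the sequence before the other Tlr6 start (chr5:64960049-64960298) held none of them.

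Among the 12 TLRs in the table, Tlr3, Tlr2 and Tlr4 carried nearly all of the transcripts. Their mean shares of the summed TPM of the receptors were 54.2% ± 9.02, 25.4% ± 3.79 and 18.7% ± 5.50 in LN-LEC (SD, n = 4), and 53.6% ± 2.40, 25.4% ± 1.97 and 12.4% ± 1.1 in LN-BEC (n = 3). In D-LEC the shares were 81.0% ± 0.491, 16.3% ± 0.359 and 1.42% ± 0.170 (n = 3). The Tlr4 share of every D-LEC library was below that of every lymph node library, whose lowest was 11.3%, and the Tlr3 share was above all of them. Tlr6 and Tlr1 made up 4.60% ± 0.608 and 2.72% ± 0.629 in LN-BEC, 0.379% ± 0.379 and 0.426% ± 0.180 in LN-LEC, and 0.187% ± 0.189 and 0.123% ± 0.214 in D-LEC. The summed TPM was 73.5 ± 8.83 in LN-LEC and 42.9 ± 9.45 in LN-BEC, against 33.8 ± 2.16 in D-LEC. Receptors with at least 3 counts numbered 8 or 9 in the LN-LEC libraries, 7 to 9 in LN-BEC and 5 to 7 in D-LEC.

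**Figure D4:**
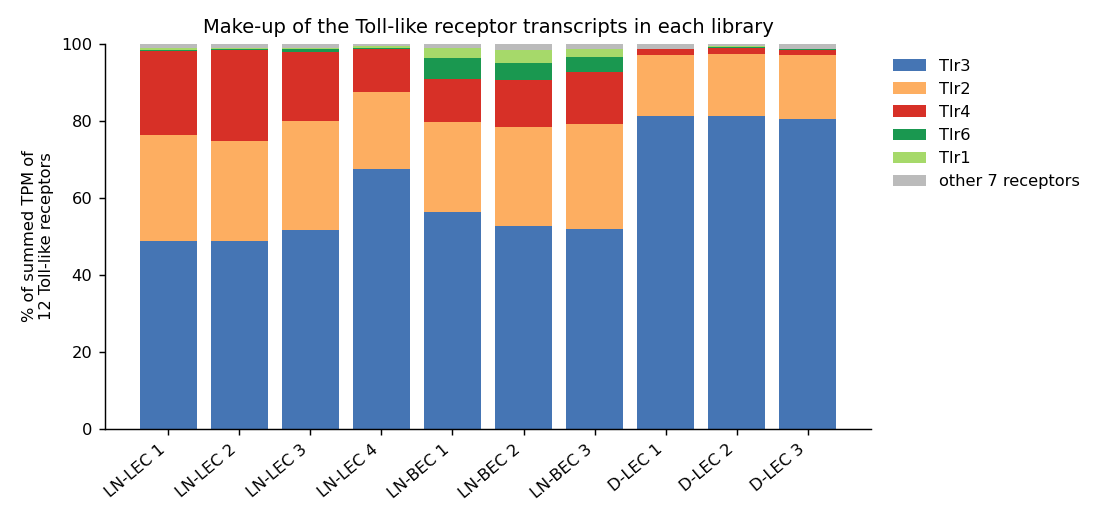
Share of each receptor in the summed TPM of the 12 Toll-like receptors (vertical axis, %), with 1 bar for each of the 10 libraries. The Tlr4 segment spans 11.3% to 23.7% in LN-LEC and 1.23% to 1.54% in D-LEC, where Tlr3 makes up 80.4% to 81.3%, and the Tlr6 segment spans 4.11% to 5.28% in LN-BEC.

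Of the other 6 receptors 4 were tested. Tlr1 passed in all 3 comparisons, as given above. Tlr12, a receptor for profilin of protozoa, was at 0 in all 3 D-LEC libraries and had 3, 25 and 6 counts in LN-BEC (adjusted p = 0.0055), with 25 in LN-BEC replicate 2. Tlr13, which recognizes bacterial ribosomal RNA, was at 7.54 to 12.7 normalised counts in LN-LEC and at most 4.96 elsewhere, without passing (adjusted p = 0.088 against D-LEC and 0.055 against LN-BEC, the latter 0.034 with library totals). Tlr8 was at most 7.44 in any library, and no comparison passed (adjusted p of 0.16 to 0.62). Tlr9 had 1 count in the whole table and Tlr11 had 3, so neither was tested.

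Of the 5 adaptors other than Myd88, 1 passed toward LN-LEC against D-LEC, 2 passed between LN-LEC and LN-BEC, 1 in each direction, and 4 between D-LEC and LN-BEC, 3 of them toward LN-BEC (20%, 40% and 80% called, against 45.8%, 38.2% and 48.1% of all genes). Tirap, which bridges TLR2 and TLR4 to MYD88, had 2329 ± 184 normalised counts in LN-BEC, 1502 ± 94.4 in LN-LEC and 1460.3 ± 62.2 in D-LEC, and both differences with LN-BEC passed (adjusted p = 4.8e-05 and 3.4e-05). Ticam1 passed between D-LEC and LN-BEC (135 ± 2.51 and 202 ± 34.5, adjusted p = 0.015, but 0.089 with library totals) and in no other comparison. Ticam2 (TRAM), which joins TLR4 to TICAM1, was scarce, at 13.7 ± 6.70 in LN-LEC and 21.95 ± 7.09 in D-LEC against 1.51 ± 0.946 in LN-BEC, and each LEC population was higher than LN-BEC (adjusted p = 0.0026 and 0.00063). Sarm1, a TIR protein that degrades NAD, passed between LN-LEC and D-LEC (25.5 ± 12.3 and 3.63 ± 2.73, adjusted p = 0.0064). Pik3ap1 (BCAP) had a mean of at most 4.72 normalised counts in any population and passed between D-LEC and LN-BEC (adjusted p = 0.029).

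A list of 9 tested genes held those for proteins that fold, carry or assist TLRs and for relatives of TLRs or MD-2, whether or not these assist signalling. Of the 9, 5 were higher in LN-LEC and 2 in D-LEC, 2 were higher in LN-LEC and 3 in LN-BEC, and 2 were higher in D-LEC and 5 in LN-BEC. The shares called were 77.8%, 55.6% and 77.8%, against 45.8%, 38.2% and 48.1% of all genes. With library totals, 4 were higher in D-LEC and 4 in LN-BEC, beside 30.5% and 19.9% of all genes. Lrrc33, a leucine-rich repeat protein related to TLRs, was 4606 ± 174 in LN-LEC and 7881 ± 729 in LN-BEC against 237 ± 31.1 in D-LEC (log2 fold change of LN-LEC over D-LEC 4.30 ± 0.11, adjusted p = 9e-12). Cd36, a scavenger receptor that assists TLR2 and TLR6, was 29792 ± 5456 in LN-LEC and 42889 ± 16334 in LN-BEC against 1199.9 ± 169 in D-LEC (adjusted p = 3.2e-07 and 1.6e-07). Hsp90b1 (gp96), the chaperone that folds most TLRs, was highest in LN-LEC (17576 ± 1233), above D-LEC by 0.68 ± 0.09 and above LN-BEC by 0.90 ± 0.09 on the log2 scale (adjusted p = 3.1e-05 and 2.6e-06).

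Cd180 and its partner Ly86 (MD-1), relatives of TLR4 and MD-2 that are known from B cells, were low throughout. Cd180 had 11, 18 and 7 counts in LN-BEC, 1 to 3 in the LN-LEC libraries and 0 in each D-LEC library, and passed in all 3 comparisons (adjusted p = 0.043, 0.025 and 0.0014, the first just missing the threshold, at 0.05, with library totals), in the order of the B cell markers above. Ly86 was 50.3 ± 1.77 normalised counts in LN-BEC, 21.2 ± 3.09 in LN-LEC and 3.52 ± 3.81 in D-LEC.

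Of 24 kinases and transcription factors downstream of the receptors, 8 were higher in LN-LEC and 6 in D-LEC, 6 were higher in LN-LEC and 5 in LN-BEC, and 2 were higher in D-LEC and 8 in LN-BEC. The shares called, 58.3%, 45.8% and 41.7%, stood against 45.8%, 38.2% and 48.1% of all genes. With library totals the splits with LN-BEC turned to 8 in LN-LEC and 2 in LN-BEC, and to 6 in D-LEC and 4 in LN-BEC. All genes then split 29.8% and 13.4%, and 30.5% and 19.9%. With TMM factors, the median absolute log2 fold changes of the 24 were 0.42, 0.28 and 0.23, beside 0.52, 0.43 and 0.58 over all genes. Irf8 was 4381 ± 430 in LN-LEC against 566 ± 157 in LN-BEC and 751 ± 149 in D-LEC (adjusted p = 1.2e-07 and 3e-07). Irf7 was lower in D-LEC (313 ± 68.9) than in LN-LEC (1759 ± 401) and LN-BEC (2242 ± 203), and Ikbke, a kinase of the TICAM1 branch, was lower in LN-BEC (111 ± 3.74) than in LN-LEC (404 ± 71.7) and D-LEC (578 ± 139).

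Of 20 genes listed for restraint of TLR signalling or of immune responses more widely, 10 were higher in LN-LEC and 3 in D-LEC, 8 were higher in LN-LEC and 4 in LN-BEC, and 2 were higher in D-LEC and 13 in LN-BEC (65.0%, 60.0% and 75.0% called, against 45.8%, 38.2% and 48.1% of all genes). With library totals the splits with LN-BEC were 10 and 3, and 4 and 10, beside 29.8% and 13.4%, and 30.5% and 19.9% of all genes. The median log2 fold change of the 20 was 0.74, 0.17 and -0.54. Tnfaip3 (A20), an enzyme that edits ubiquitin, was 3813 ± 238 in LN-LEC and 1833 ± 125 in LN-BEC, against 678 ± 94.7 in D-LEC. Socs1, which blocks cytokine receptor signalling, had 548 ± 88.3, 196 ± 16.7 and 49.2 ± 3.96. All 3 comparisons of both genes passed, at an adjusted p of at most 2.5e-06. Nfkbid, an atypical IkB protein, was 334 ± 19.3 in LN-BEC, 97.9 ± 23.97 in LN-LEC and 7.24 ± 2.96 in D-LEC, and also passed in all 3.

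Of 12 tested genes that bind, carry or inactivate LPS outside the receptor or sense it in the cytosol, 6 were higher in LN-LEC and 1 in D-LEC, 5 were higher in LN-LEC and 5 in LN-BEC, and 1 was higher in D-LEC and 8 in LN-BEC. Called were 58.3%, 83.3% and 75.0%, against 45.8%, 38.2% and 48.1% of all genes. The scavenger receptors Marco and Msr1, known from macrophages, had 25108 ± 7657 and 16179 ± 1655 normalised counts in LN-LEC, 744 ± 823 and 367 ± 399 in LN-BEC, and 6.73 ± 5.38 and 10.3 ± 9.07 in D-LEC. Both were higher in LN-LEC than D-LEC (adjusted p = 0.00017 for Marco, and log2 fold change 10.78 ± 1.21 with adjusted p = 0.0002 for Msr1). Of the 13 macrophage and monocyte markers whose sums are given above, 7 had at least 3 counts in every LN-LEC library. Mrc1 had a mean of 6547 normalised counts in LN-LEC, Cd68 144, Lyz2 123 and C1qb 59.2, while Adgre1 had 3.23 and Itgam 1.42. Flow cytometry and immunofluorescence by the authors found MARCO and MSR-1 on subpopulations of LN-LEC and not on LN-BEC. The part of macrophages in the Marco and Msr1 transcript levels was not tested. Casp1, an inflammatory caspase, was 2901 ± 329 in LN-LEC and 682 ± 63.0 in LN-BEC, against 39.98 ± 11.2 in D-LEC.

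LN-BEC overexpressed 3 further genes of LPS handling against both LEC populations. These were Scarb1 (16377 ± 635), a lipoprotein receptor that takes up LPS, Pltp (1689 ± 239), a transfer protein for phospholipids and LPS, and Alpl (299 ± 44.0), a phosphatase that acts on LPS. Their log2 fold changes of LN-LEC over LN-BEC were -4.12 ± 0.11, -5.35 ± 0.22 and -5.65 ± 0.44.

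Transcripts that LPS is known to raise were measured in these cells of untreated mice as well. Of 25 tested, 10 were higher in LN-LEC and 3 in D-LEC, 10 were higher in LN-LEC and 5 in LN-BEC, and 4 were higher in D-LEC and 12 in LN-BEC (52%, 60% and 64% called, against 45.8%, 38.2% and 48.1% of all genes). Vcam1, an adhesion molecule for leukocytes, was 11412 ± 1030.4 in LN-LEC and 2562 ± 325 in LN-BEC, against 80.3 ± 30.8 in D-LEC, and the chemokine Cxcl10 was 5915 ± 1028, 738 ± 257 and 61.8 ± 22.1. Ccl20, which attracts lymphocytes bearing CCR6, had 1246 ± 437 normalised counts in LN-LEC and 25.3 ± 18.2 in LN-BEC, against 0.420 ± 0.728 in D-LEC.

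Some of these transcripts were higher in D-LEC or LN-BEC. Lcn2 (lipocalin 2), which binds bacterial siderophores, was 14348 ± 55.0 in D-LEC, 512 ± 105 in LN-LEC and 88.7 ± 37.7 in LN-BEC (log2 fold change of LN-LEC over D-LEC -4.78 ± 0.23, adjusted p = 3.9e-08). Il6, a cytokine, was 79.0 ± 18.1 in LN-BEC, 32.1 ± 1.37 in D-LEC and 2.03 ± 0.974 in LN-LEC, so that LN-LEC, with the highest Tlr4, had the lowest Il6, and all 3 comparisons of Il6 passed (adjusted p of at most 0.0055). Selp (P-selectin) was highest in LN-BEC (1191 ± 156 against 164 ± 29.5 in LN-LEC and 46.2 ± 17.7 in D-LEC).

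Over the 99 tested genes of these lists together, 41 were higher in LN-LEC and 15 in D-LEC (56.6% called, against 45.8% of all genes), 32 were higher in LN-LEC and 24 in LN-BEC (56.6% against 38.2%), and 12 were higher in D-LEC and 51 in LN-BEC (63.6% against 48.1%). With library totals, 38 were higher in LN-LEC and 19 in LN-BEC, beside 29.8% and 13.4% of all genes. Between D-LEC and LN-BEC, 20 were then higher in D-LEC and 42 in LN-BEC, beside 30.5% and 19.9% of all genes. Whether the lists differ from other genes was not tested.

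**Figure D5:**
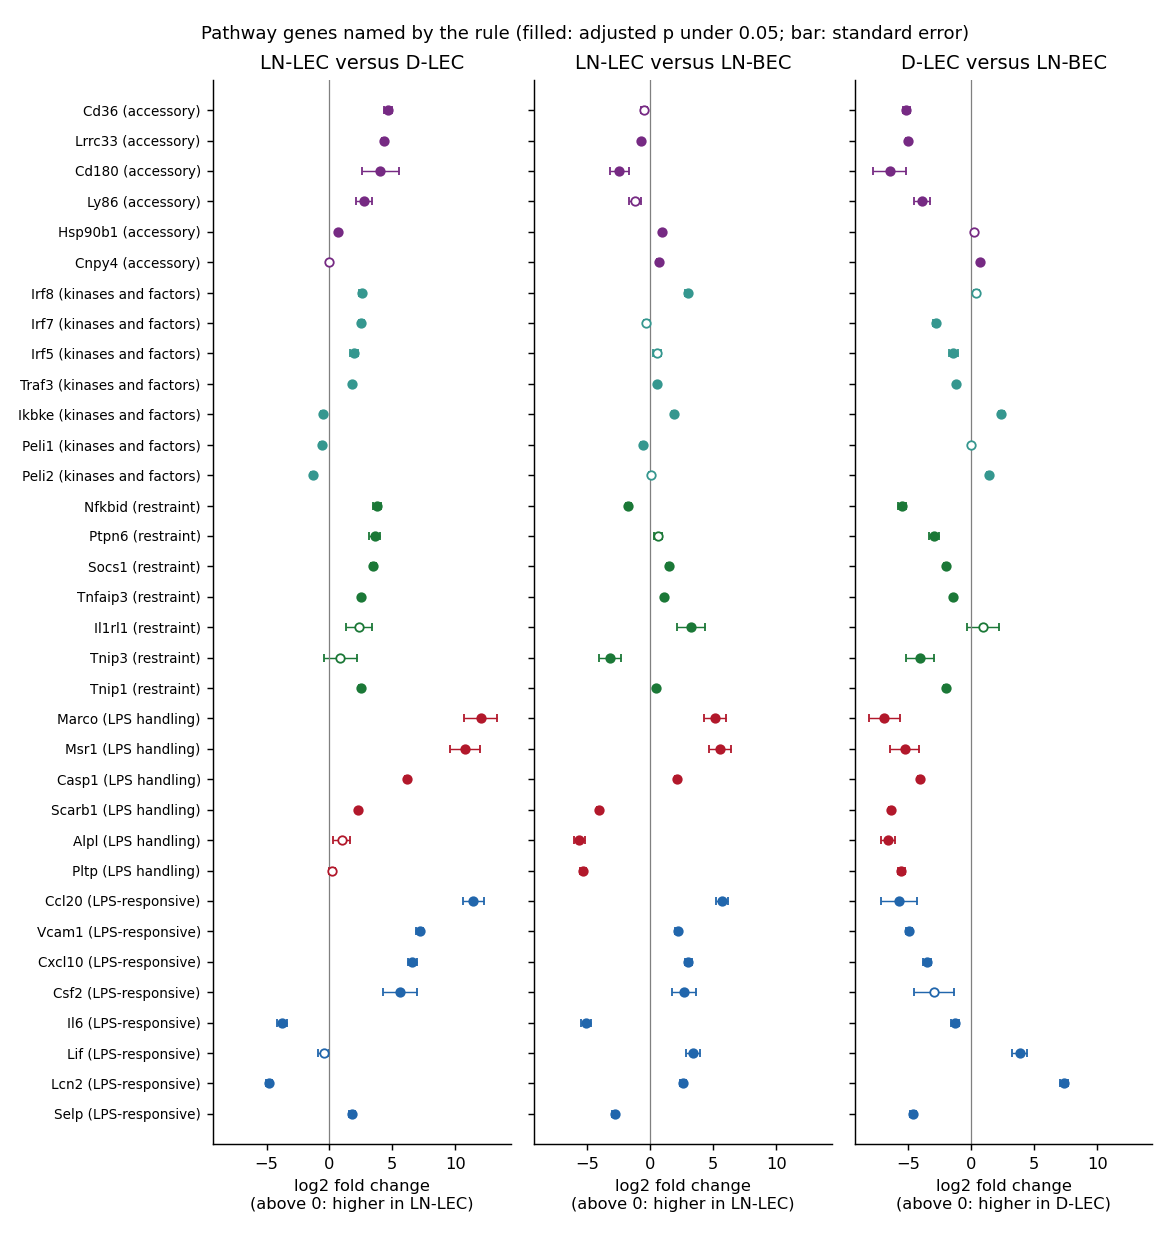
Fitted log2 fold changes with standard errors (horizontal axes, log2 scale) of pathway genes that the naming rule picked from 5 lists, coloured by list and filled where the adjusted p was under 0.05. Lrrc33, Cd36, Casp1 and Vcam1 lie toward the lymph node population in both comparisons with D-LEC, Lcn2 (-4.78 in LN-LEC over D-LEC) and Peli2 lie toward D-LEC in both, and Ikbke is lower in LN-BEC than in either LEC population.

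Genes whose levels followed a member most closely were found from Pearson's r of log2(normalised count + 1) over the 10 libraries, among 10819 genes with a mean of at least 100 in some population. The 10 libraries fall into 3 populations, so that r mostly reflects the order of 3 means. Panx1 (r = 0.999), which encodes the channel pannexin 1, Srgn (serglycin, r = 0.997) and Rap1gap (r = 0.997) lay closest to Tlr4. Tmem176a, Tmem176b and Rgl3 lay closest to Tlr2 (r of 0.997 to 0.998), and Elovl1, Klf6 and Plin4 to Cd14 (0.983 to 0.984). Lix1l, the kinase gene Syk and Fam171a1 lay closest to Ly96 (0.986 to 0.988), and Bche, Mdh1 and Nck2 to Myd88 (0.973 to 0.976). Hmgb1 (r = 0.929), Kat2b and Nos3 lay closest to Tlr3. Like Tlr3, Hmgb1 was highest in LN-LEC replicate 4, at a normalised count of 9430 against 3674 to 3943 in the other LN-LEC libraries.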

How the data were processed

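RNA of sorted LN-LEC (4 libraries), LN-BEC (3) and D-LEC (3) was amplified and sequenced as read pairs. The authors used Fastx-trimmer, then STAR with the mm9 genome, then featureCounts 1.4.4, which assigned read pairs to exons grouped by gene symbol, without regard to strand and without pairs aligning to several places. The deposited counts carry no normalization. Libraries were grouped by their labels, which give no batch or pairing, and replicate numbers follow the order of the sample records.

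Normalised counts are counts divided by DESeq2 1.42.0 size factors, and TPM were computed from the exon lengths deposited with the counts. Named symbols with a mean normalised count of at least 1 in some population were tested in R 4.3.3 with edgeR 4.0.16 (15323 genes; 3828 predicted or clone symbols were left out). All 10 libraries entered 1 robust quasi-likelihood fit with TMM factors and a mean for each population, with Benjamini-Hochberg adjustment within each comparison and a threshold of 0.05. The authors fitted DESeq2, which is an alternative here, beside other scaling, filters and libraries left out. In simulated data with the same libraries and groups, 81% of 2-fold and 99% of 8-fold changes were recovered for LN-LEC against D-LEC, and 80% and 100% for LN-LEC against LN-BEC, on 15323 genes. Only 100 genes were changed for each fold, a far smaller share than passed in the data. All of them lay above a floor on the mean count that Tlr5, Tlr6 and Tlr7 do not reach, so that these rates do not cover those genes.

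The 9 genes and all lists were chosen with earlier results of these data known. By rule, the text named the 9 genes, every other TLR and adaptor, and genes of the remaining lists among the up to 4 with the greatest log2 fold change in a comparison that passed without overlapping libraries, and the 3 genes closest to each member with a mean normalised count of at least 100. Sequences came from mm9 and from RefSeq (GRCm38.p6), with motifs searched in Python 3.11.15.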

Additional observations from a re-analysis of the deposited data

Results flagged for a closer look

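In the groups of 4 LN-LEC libraries, the highest or lowest value was compared with the spread of the others (Dixon's ratio of gap to range, against its 95% critical value for 4 values) for 11 quantities, the 9 genes and the 2 co-receptor ratios. Chance alone would single out about 1 in 20 such groups, and 2 of 11 were. The normalised count of Tlr3 in LN-LEC replicate 4 was 3796, against 1852 to 1904 in the other 3 libraries (ratio 0.973). Over all 15323 genes tested, the highest LN-LEC value stood apart in replicate 4 for 3.54% of genes, against 1.1% to 1.29% for each of the other 3 libraries. The lowest value stood apart for 0.294% to 0.848% of genes in each library. Together these shares of the 4 libraries exceed 1 in 20 genes. The normalised count of Tlr6 in LN-LEC replicate 3 was 20.4, against 3.81 to 6.29 in the other 3 (ratio 0.850). Groups of 3 libraries were not tested in this way. Why these libraries stand apart was not tested.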

How the results depend on the processing

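Each of the 27 log2 fold changes of the 9 genes was recomputed under 19 other settings, giving 510 values, of which 474 kept their direction and their side of the threshold, 22 no longer passed, 9 came to pass and 5 turned direction. The settings were DESeq2, DESeq2 size factors, no filter, a stricter filter, clone symbols kept, a fit that was not robust, only the populations compared, and 10 fits without 1 library each. Chosen after seeing the data were a setting that left out both LN-LEC replicate 4 and LN-BEC replicate 3, and one with library totals in place of TMM factors. The 3 comparisons of Tlr4 and of Ly96 passed under every one of these settings, as did those of Cd14, Tlr2 and Myd88 with D-LEC, and those of Tlr6 with LN-BEC. Directions turned for values that did not pass. Tlr3 in LN-LEC over LN-BEC was -0.06 with both libraries left out, and Myd88 in that comparison 0.07 with library totals. Tlr5 in D-LEC over LN-BEC was 0.21 with both libraries left out, and -0.69 to 0.19 over the fits without 1 library, being 0.01 without D-LEC replicate 2 and 0.19 without LN-BEC replicate 3. With only the populations compared, Tlr3 and Tlr6 in LN-LEC over D-LEC did not pass (adjusted p = 0.071 and 0.093), while Tlr3 in D-LEC over LN-BEC did (0.012). The counts of called genes stayed within 1.5 times of those reported, at 5 to 7, 3 to 5 and 6 to 8 of the 9 genes in LN-LEC over D-LEC, LN-LEC over LN-BEC and D-LEC over LN-BEC. The ratios kept their direction, with the Cd14 to Tlr4 ratio of LN-LEC over D-LEC between -7.26 and -6.70 on the log2 scale. DESeq2 and its size factors moved the median of all genes by at most 0.016, and library totals by up to 0.195. No paired analysis was possible because the labels give the libraries no shared replicate numbers. Depth limits Tlr5, Tlr6, Tlr7 and Cd180, for which 3 counts or fewer make up some libraries. Intervals and floors cover counting error only. No batch or sorting day is given, so that tissue and processing cannot be told apart between D-LEC and the lymph node populations.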
